A study of Homo sapiens with 12 samples.

Results

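RNA of 10 genes of the BCL-2 family (BMF, BCL2L11, BBC3, HRK, BIK, PMAIP1, BCL2, BCL2L1, MCL1 and BAK1) was followed through single-agent and combined inhibition of AKT and EZH2 in C4.2B cells. The genes were taken by symbol from the deposited table of raw read counts, and all 10 had a row among its 58735 genes. All 10 were also among the 16646 genes with enough reads to be tested, and each would have passed that filter with any 1 arm left out. C4.2B is a castration-resistant human prostate cancer cell line of the LNCaP lineage. Polyadenylated RNA was sequenced from 4 arms of 3 libraries each, which the labels mark A, B and C. The DMSO arm received vehicle throughout, and the AKTi arm received 0.25 µM ipatasertib for the final 24 hours after growth in DMSO. The EZH2i arm was kept in 1 µM tazemetostat for 6 days and for the final 24 hours, and the combination arm had the same tazemetostat schedule plus 0.25 µM ipatasertib for the final 24 hours. The final 24 hours of every arm, DMSO included, were in medium with 10% charcoal-stripped FBS, so all 4 arms were short of serum steroids. The EZH2 inhibitor was therefore present for longer than the AKT inhibitor, and length of exposure and target cannot be told apart between the single agents. By the study's methods, cells were seeded as triplicate plates on the day before the final treatment. P-values therefore measure the spread between such plates, and the labels name no independent repeats of the experiment.

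The BCL-2 family controls the mitochondrial arm of apoptosis. BH3-only proteins such as BIM (BCL2L11), PUMA (BBC3) and BMF carry the death signal, the pro-survival proteins BCL-2, BCL-XL (BCL2L1) and MCL-1 bind and restrain them, and the effectors BAK and BAX, once released, open the outer mitochondrial membrane so that cytochrome c escapes. BMF is known to be held on the cytoskeleton through dynein light chains, and BIM and PUMA are known targets of FOXO transcription factors, which AKT phosphorylates and keeps out of the nucleus. EZH2 is the methyltransferase of Polycomb repressive complex 2, which places the repressive H3K27me3 mark.

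The starts of 4 of the 5 BH3-only genes that rose in the combination are shown first, because BMF moved mostly with EZH2i, BBC3 with AKTi and HRK with neither agent by the test used here. RefSeq's promoter table (GRCh38.p14, with the coordinates of the hg38 build used for the counts) held 10 starts for 8 of the 10 members, but none for BIK and MCL1. Each sequence is the stretch upstream of the start that lies outside annotated exons, on the strand of the gene, with capitals for a match to 1 of 3 motifs that were searched on both strands. The motifs were the forkhead cores TGTTTAC and TGTTTGC, which 2.98% and 3.23% of all 35116 promoters of 250 bases hold, and the E-box CACGTG, which 6.34% hold.
BMF (chr15:40108893-40109129, minus strand): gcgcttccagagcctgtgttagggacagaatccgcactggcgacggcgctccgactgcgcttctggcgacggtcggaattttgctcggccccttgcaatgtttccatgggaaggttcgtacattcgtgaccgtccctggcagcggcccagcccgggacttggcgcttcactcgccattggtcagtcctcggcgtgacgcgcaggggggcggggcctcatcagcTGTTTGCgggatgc
BCL2L11 (chr2:111120664-111120913, plus strand): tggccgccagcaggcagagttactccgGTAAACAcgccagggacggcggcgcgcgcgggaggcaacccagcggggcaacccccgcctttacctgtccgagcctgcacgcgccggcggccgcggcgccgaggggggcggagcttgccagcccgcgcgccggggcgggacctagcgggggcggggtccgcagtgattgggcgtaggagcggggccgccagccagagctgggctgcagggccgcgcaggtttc
BBC3 (chr19:47232767-47232917, minus strand): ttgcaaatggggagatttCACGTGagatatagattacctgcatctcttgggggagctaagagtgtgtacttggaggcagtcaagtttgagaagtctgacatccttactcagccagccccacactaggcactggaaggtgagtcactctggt
HRK (chr12:116881442-116881691, minus strand): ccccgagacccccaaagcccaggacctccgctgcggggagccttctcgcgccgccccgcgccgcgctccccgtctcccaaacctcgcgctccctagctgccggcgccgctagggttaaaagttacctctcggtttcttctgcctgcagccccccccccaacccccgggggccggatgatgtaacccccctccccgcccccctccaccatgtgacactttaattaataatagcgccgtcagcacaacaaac
The BMF stretch held TGTTTGC 27 bases before its start and 26 CpG dinucleotides in the 250-base window, against a median of 11 over all promoters. BCL2L11 had TGTTTAC on the opposite strand (written GTAAACA) 223 bases before the listed start, with 34 CpG. That window lies inside the BCL2L11 locus used for the counts, which begins at chr2:111119378. BBC3 had CACGTG 232 bases before the listed start and 4 CpG, and HRK had none of the 3 motifs and 22 CpG. A further BMF start (chr15:40106967-40107216 for its 250 bases) held 0 CpG, so these BMF starts differ in base composition. That start held none of the 3 motifs, nor did the windows of PMAIP1, BCL2, BCL2L1 and BAK1. PMAIP1 and BCL2, which fell in the combination, had 36 and 24 CpG. BCL2L1 had 17 and 12 at its listed starts, and BAK1 had 5. Neither CpG content nor these motifs were compared between raised and lowered genes. The counts are summed over transcripts and do not tell which BMF or BCL2L11 start was used. A match of letters is a description and was not tied to binding.

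All 12 libraries had similar depth, with 14133755 to 22276417 counts, and pairs of libraries of 1 arm differed by more than sampling noise (chi-square of 2.53 to 7.50 per gene). The 11 luminal prostate markers were all detected. Their summed level was 4674 to 4836 CPM in DMSO and 7403 to 7479 in AKTi. It was 7713 to 8087 in EZH2i and 10281 to 10495 in the combination. KLK3, the most abundant, averaged 1372 CPM in DMSO and 3941 in the combination. Against DMSO, 10 markers were called higher in the combination and HOXB13 lower (424 to 294 CPM), beside 38.0% and 35.2% of all genes. Markers of leukocytes and basal epithelium stayed at or below 1.29 and 0.368 CPM in sum, with CD3E and KRT5 at 0 in every library. The sums of 4 fibroblast and 3 endothelial markers, of which 1 each was tested, were 4.36 to 7.001 and 2.16 to 2.95 CPM in DMSO, 4.27 to 6.40 and 3.48 to 4.34 in AKTi, 15.7 to 18.1 and 5.73 to 6.496 in EZH2i. In the combination they were 9.79 to 14.95 and 5.07 to 7.38. These sums were mostly COL1A1 and VWF. COL1A1 averaged 5.67, 5.05, 16.8 and 11.9 CPM in DMSO, AKTi, EZH2i and the combination, and VWF 2.58, 3.88, 5.96 and 6.06. The other listed fibroblast and endothelial markers averaged at most 0.246 CPM in any arm (LUM in EZH2i). Marker levels thus moved with the arms, and their part in the results was not tested. Values below are counts per 1000000 counts of a library scaled by TMM (CPM) unless a length is named, and each called change passed an adjusted p of 0.05 in edgeR's quasi-likelihood test over all genes and all 12 libraries. Fold changes are relative to the other genes. The median log2 fold change of all genes in the combination against DMSO was 0.06 under TMM, 0.26 by library size only and 0.25 by upper-quartile scaling.

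Against DMSO, the combination raised 6 members (BMF, HRK, BBC3, BIK, BCL2L11 and BCL2L1) and lowered 3 (BCL2, PMAIP1 and BAK1), while MCL1 did not pass the test. Of all genes tested, 38.0% were called higher and 35.2% lower in that comparison. AKTi alone raised 5 members (BBC3, BMF, BIK, BCL2L11 and BCL2L1) against 20.6% of all genes, and lowered PMAIP1 and BAK1 against 21.9% of all genes. EZH2i alone raised 5 (BMF, BIK, BCL2L11, BCL2L1 and MCL1) against 32.6% of all genes, and lowered 3 (PMAIP1, BCL2 and BAK1) against 31.5%. The 3 comparisons share their DMSO libraries. The median log2 fold change of the 10 members was 0.21 with AKTi, 0.57 with EZH2i and 0.91 with the combination, beside 0.01, 0.03 and 0.06 for all genes. The members were chosen with results of these libraries known, so these shares describe them and support nothing more. By library size only, the combination had 7574 genes higher and 4749 lower, compared with 6320 and 5866 under TMM. That scaling gave 6630 higher and 4193 lower for EZH2i (5421 and 5249 under TMM).

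**Figure D1:**
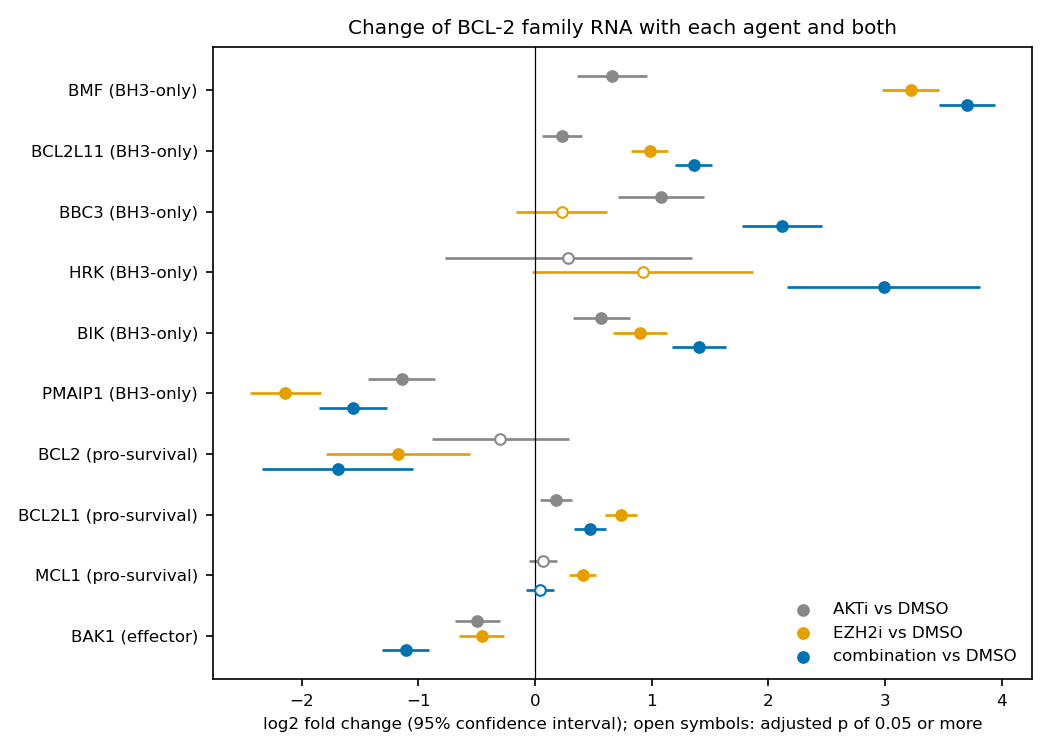
Log2 fold change against DMSO (horizontal axis) of the 10 members in AKTi, EZH2i and combination libraries, with 95% confidence intervals, n = 3 libraries per arm. Filled points passed an adjusted p of 0.05, and BMF lay farthest to the right at 3.70 in the combination, whereas PMAIP1 was lowest at -2.14 in EZH2i.

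BMF (hg38 chr15:40087890-40108892, minus strand), a BH3-only protein held on the cytoskeleton, had the largest rise of the 10. Its level in libraries A, B and C was 6.60, 5.02 and 6.47 CPM in DMSO, 12.8, 7.08 and 9.04 in AKTi, 52.8, 57.3 and 59.8 in EZH2i, and 78.5, 81.2 and 77.7 in the combination. The 4 arms did not overlap, and the step from AKTi to EZH2i was the widest. BMF rose 1.58-fold with AKTi (log2 0.66 ± 0.15 SE, adjusted p = 3.9e-04), 9.31-fold with EZH2i (log2 3.22 ± 0.12, adjusted p = 5.6e-23) and 13.0-fold with the combination (log2 3.70 ± 0.12, adjusted p = 1.2e-25). The AKTi change was 0.40 (adjusted p = 0.025) without AKTi replicate A, the library with the highest BMF level of that arm. Adding AKTi to EZH2i raised BMF by a further 1.39-fold (log2 0.48 ± 0.09, adjusted p = 3.4e-05), and all 3 combination libraries lay above all 3 EZH2i libraries. Among the 16646 genes, BMF ranked 279 from the highest fold change in EZH2i and 302 in the combination, so it was within the upper tail but not at its end. In bulk RNA, fewer cells with a transcript and less of it per cell cannot be told apart, which holds for every level given here.

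BCL2L11 (chr2:111119378-111168447, plus strand) encodes BIM, an activator BH3-only protein that binds all pro-survival members. BCL2L11 measured 25.4, 26.2 and 27.3 CPM in DMSO, 30.5, 35.2 and 27.3 in AKTi, 51.8, 52.5 and 52.0 in EZH2i, and 65.4, 69.7 and 68.0 in the combination. The DMSO and AKTi libraries overlapped, and the EZH2i and combination libraries each lay apart. It rose 1.98-fold with EZH2i (log2 0.98 ± 0.08, adjusted p = 2.3e-13) and 2.57-fold with the combination (log2 1.36 ± 0.08, adjusted p = 7.6e-18). The step from EZH2i to the combination was 1.299-fold (log2 0.38 ± 0.07, adjusted p = 5.4e-05). The AKTi change was small (log2 0.23 ± 0.08, adjusted p = 0.024), and it was no longer called without AKTi replicate B (0.11, adjusted p = 0.40), DMSO replicate A (0.21, adjusted p = 0.085) or DMSO replicate B (0.20, adjusted p = 0.10), or when genes with at least 1 count in total were kept (0.23, adjusted p = 0.063). The antisense-strand gene MIR4435-2HG overlaps BCL2L11 and had 58 to 156 counts per library. Whether strand was used in counting is not given in the sources used here, so reads of these genes may have been confused or discarded.

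BBC3 (chr19:47220822-47232766, minus strand) encodes PUMA, a BH3-only protein known as a target of p53 and FOXO factors, and of the 10 it was raised most by AKTi. BBC3 stood at 3.57, 3.02 and 3.93 CPM in DMSO, 6.51, 7.71 and 8.27 in AKTi, 4.69, 3.33 and 4.46 in EZH2i, and 17.0, 16.7 and 12.4 in the combination. DMSO and EZH2i libraries overlapped, AKTi libraries were above both, and combination libraries were above all others. AKTi raised BBC3 2.11-fold (log2 1.08 ± 0.18, adjusted p = 7.7e-06), whereas the EZH2i change was 0.23 with a 95% interval from -0.16 to 0.62 (adjusted p = 0.30). The combination raised it 4.34-fold (log2 2.12 ± 0.17, adjusted p = 9.0e-14). Against each single agent the combination was 2.05-fold higher than AKTi (adjusted p = 4.2e-07) and 3.70-fold higher than EZH2i (adjusted p = 4.0e-12).

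HRK (chr12:116856144-116881441, minus strand), a BH3-only protein best known from neurons, was the least abundant BH3-only gene of the list and rose in the combination. Its raw counts in libraries A, B and C were 5, 6 and 10 in DMSO, 13, 4 and 5 in AKTi, 14, 16 and 13 in EZH2i, and 64, 62 and 57 in the combination. The corresponding levels were 0.337, 0.443 and 0.480 CPM in DMSO, 0.940, 0.280 and 0.348 in AKTi, 0.937, 0.935 and 0.597 in EZH2i, and 3.24, 3.57 and 3.44 in the combination. Combination libraries were above every other library, and the other 3 arms ran together apart from a gap between DMSO and EZH2i. HRK rose 7.94-fold with the combination (log2 2.99 ± 0.41, adjusted p = 3.8e-08) and was 4.19-fold higher than in EZH2i (log2 2.07 ± 0.37, adjusted p = 1.2e-05). The AKTi change was 0.29 (95% interval -0.77 to 1.34, adjusted p = 0.70) and the EZH2i change 0.92 (95% interval -0.03 to 1.87, adjusted p = 0.084). By library size only, the EZH2i change passed the test (1.06, adjusted p = 0.045). The AKTi estimate turned to -0.43 without AKTi replicate A, which holds 13 of that arm's counts.

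BIK (chr22:43110748-43129712, plus strand), a BH3-only protein of the endoplasmic reticulum, rose in steps across the arms. BIK measured 10.6, 11.4 and 9.88 CPM in DMSO, 14.3, 15.9 and 16.8 in AKTi, 21.2, 16.9 and 21.0 in EZH2i, and 29.7, 29.0 and 25.3 in the combination. No 2 arms overlapped, although the lowest EZH2i library lay close to the highest AKTi library. BIK rose 1.48-fold with AKTi (log2 0.57 ± 0.12, adjusted p = 1.8e-04), 1.86-fold with EZH2i (log2 0.90 ± 0.12, adjusted p = 1.4e-08) and 2.65-fold with the combination (log2 1.41 ± 0.11, adjusted p = 8.1e-14). The difference between the single agents (EZH2i over AKTi, log2 0.33, adjusted p = 0.013) was not called without AKTi replicate A (0.25, adjusted p = 0.11), EZH2i replicate A (0.26, adjusted p = 0.077) or EZH2i replicate C (0.25, adjusted p = 0.10).

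PMAIP1 (chr18:59899948-59904306, plus strand) encodes NOXA, a BH3-only protein that mainly binds MCL-1, and of the listed BH3-only genes it alone fell. PMAIP1 measured 19.3, 18.7 and 16.7 CPM in DMSO, 8.46, 8.41 and 7.79 in AKTi, 4.22, 4.27 and 3.90 in EZH2i, and 7.40, 4.96 and 6.04 in the combination. The 4 arms did not overlap, and the combination lay between EZH2i and AKTi instead of below both. PMAIP1 was 2.21-fold lower in AKTi (log2 -1.14 ± 0.14, adjusted p = 2.2e-08), 4.40-fold lower in EZH2i (log2 -2.14 ± 0.15, adjusted p = 4.3e-15) and 2.95-fold lower in the combination (log2 -1.56 ± 0.14, adjusted p = 2.8e-12). In EZH2i its change was 43rd from the lowest of 16646 genes, and in the combination it was 1009th. The combination was 1.49-fold above EZH2i (log2 0.58 ± 0.16, adjusted p = 0.0033), a call that was lost without combination replicate A (0.41, adjusted p = 0.060). Against AKTi the combination was lower (log2 -0.42 ± 0.15, adjusted p = 0.018), which was not called without combination replicate B (-0.29, adjusted p = 0.12), by library size only (-0.28, adjusted p = 0.11) or by upper quartile (-0.29, adjusted p = 0.095).

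**Figure D2:**
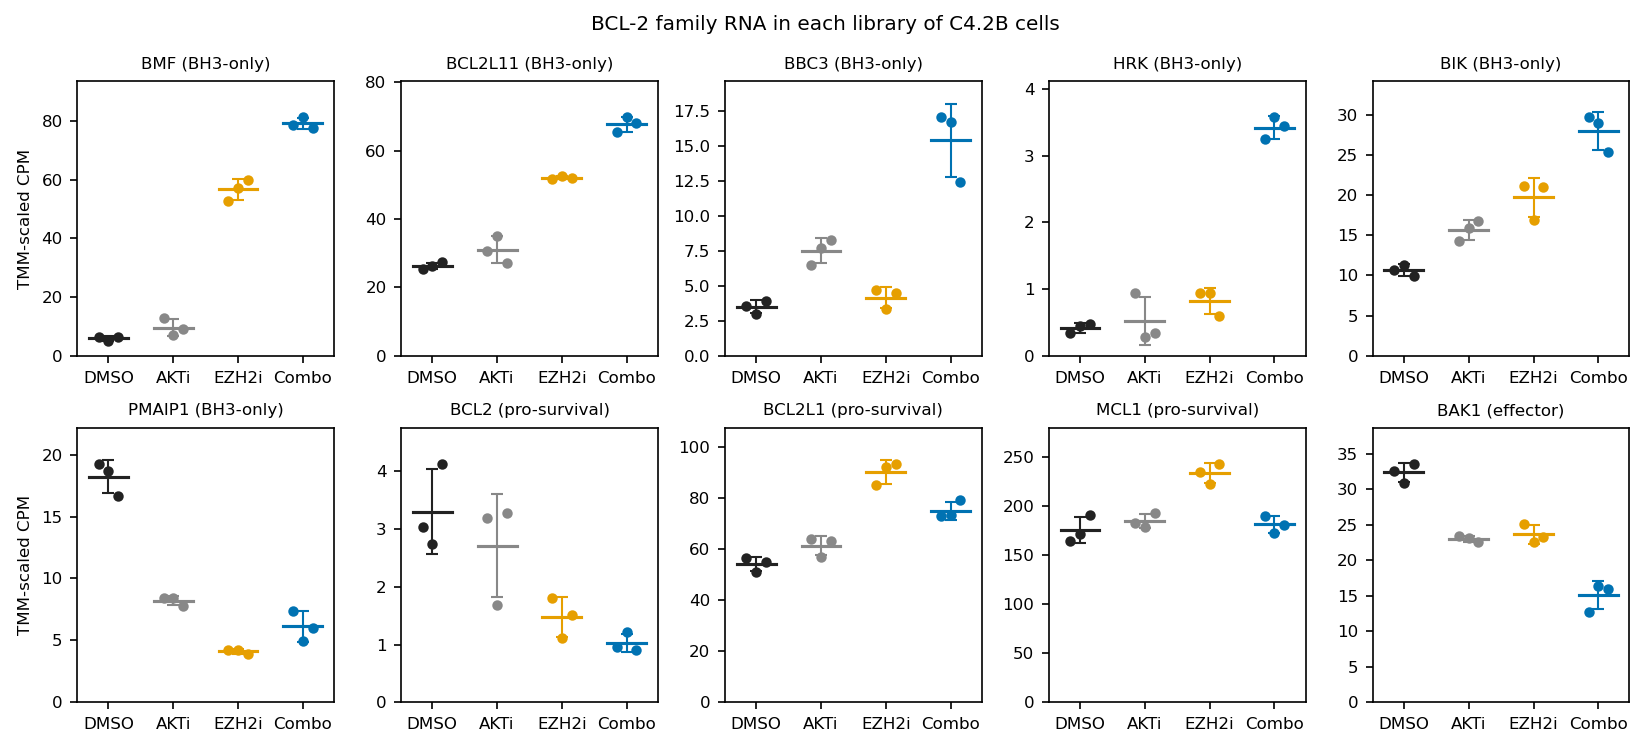
TMM-scaled CPM (vertical axis, linear from 0, a separate scale per gene) of each member in the DMSO, AKTi, EZH2i and combination libraries, with 3 points per arm, the mean as a bar and the SD as whiskers. BMF steps up mainly at EZH2i, BBC3 at AKTi and again in the combination, HRK in the combination, and PMAIP1 is lowest in EZH2i.

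The pro-survival genes moved in different directions. BCL2 (chr18:63123346-63320128, minus strand), the founding member and the target of venetoclax, fell with EZH2i and with the combination. Its counts were low, with 45, 37 and 86 in DMSO, 44, 24 and 47 in AKTi, 27, 19 and 33 in EZH2i, and 19, 21 and 15 in the combination, or 3.03, 2.73 and 4.12 CPM, 3.18, 1.68 and 3.27, 1.81, 1.11 and 1.52, and 0.963, 1.21 and 0.906 in that order. EZH2i and combination libraries were below all DMSO libraries, and AKTi libraries overlapped with DMSO. BCL2 was 2.26-fold lower in EZH2i (log2 -1.17 ± 0.30, adjusted p = 9.6e-04) and 3.23-fold lower in the combination (log2 -1.69 ± 0.32, adjusted p = 1.3e-05). The AKTi difference was -0.30 (95% interval -0.89 to 0.29, adjusted p = 0.44), and that between combination and EZH2i was -0.52 (95% interval -1.21 to 0.18, adjusted p = 0.22). EZH2i was lower than AKTi (log2 -0.88, adjusted p = 0.019), a call lost without AKTi replicate A (-0.77, adjusted p = 0.075), AKTi replicate C (-0.74, adjusted p = 0.089) or EZH2i replicate B (-0.71, adjusted p = 0.088).

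BCL2L1 (chr20:31664452-31723989, minus strand), which encodes BCL-XL and also the short form BCL-XS, was highest in EZH2i. BCL2L1 measured 56.7, 51.0 and 54.95 CPM in DMSO, 64.2, 57.0 and 63.2 in AKTi, 85.1, 92.5 and 93.5 in EZH2i, and 73.0, 73.3 and 79.2 in the combination. Arms did not overlap, and the combination was above AKTi and below EZH2i. EZH2i raised it 1.67-fold (log2 0.74 ± 0.07, adjusted p = 4.0e-12) and the combination 1.38-fold (log2 0.47 ± 0.07, adjusted p = 1.0e-07), so that adding AKTi to EZH2i lowered it (log2 -0.27 ± 0.06, adjusted p = 8.0e-04). The AKTi rise of 0.18 (adjusted p = 0.034) did not pass in DESeq2 (adjusted p = 0.051), with all genes of at least 1 count (adjusted p = 0.11), or without DMSO replicate B (0.11, adjusted p = 0.27), DMSO replicate C (adjusted p = 0.052), AKTi replicate A (adjusted p = 0.14), AKTi replicate C (adjusted p = 0.20) or EZH2i replicate C (adjusted p = 0.062). Counts are summed over isoforms, so the share of BCL-XL and BCL-XS was not measured, and the antisense gene ABALON had 3 to 27 counts per library.

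MCL1 (chr1:150574551-150579738, minus strand), a short-lived pro-survival protein and the main partner of NOXA, rose with EZH2i as a single agent. MCL1 measured 165, 171 and 191 CPM in DMSO, 183, 178 and 192 in AKTi, 234, 223 and 243 in EZH2i, and 190, 172 and 181 in the combination. EZH2i libraries were above all others, and the remaining 3 arms overlapped. MCL1 rose 1.33-fold with EZH2i (log2 0.41 ± 0.06, adjusted p = 1.4e-07) and was lower in the combination than in EZH2i (log2 -0.36 ± 0.06, adjusted p = 2.3e-06). Between the combination and DMSO the difference was 0.04 (95% interval -0.07 to 0.16, adjusted p = 0.50), and with AKTi alone it was 0.07 (95% interval -0.05 to 0.19, adjusted p = 0.35). The combination value depended on scaling, as MCL1 was called higher by library size only (0.24, adjusted p = 4.1e-04) and by upper quartile (0.23, adjusted p = 5.3e-04), where the median of all genes was also higher by 0.20 and 0.18.

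BAK1 (chr6:33572547-33580293, minus strand) encodes BAK, an effector that forms pores in the outer mitochondrial membrane. BAK1 measured 32.6, 30.9 and 33.6 CPM in DMSO, 23.4, 23.2 and 22.5 in AKTi, 25.1, 22.5 and 23.3 in EZH2i, and 12.8, 16.4 and 16.01 in the combination. The single-agent arms overlapped with each other, DMSO was above them and the combination below. BAK1 was 1.41-fold lower in AKTi (log2 -0.49 ± 0.10, adjusted p = 6.4e-05), 1.37-fold lower in EZH2i (log2 -0.46 ± 0.09, adjusted p = 6.4e-05) and 2.16-fold lower in the combination (log2 -1.11 ± 0.10, adjusted p = 1.3e-12). The combination was also lower than AKTi (log2 -0.62 ± 0.10, adjusted p = 2.1e-06) and EZH2i (log2 -0.65 ± 0.10, adjusted p = 1.1e-06). These calls were made in every alternative analysis.

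Each comparison between treated arms was then read over the whole list. The combination was higher than AKTi in 6 members (BMF, HRK, BCL2L11, BBC3, BIK and BCL2L1) and lower in 3 (BCL2, BAK1 and PMAIP1), while 32.1% of all genes were called higher and 32.1% lower. Compared with EZH2i, it was higher in 6 (HRK, BBC3, PMAIP1, BIK, BMF and BCL2L11) and lower in 3 (BAK1, MCL1 and BCL2L1), against 21.1% and 25.7% of all genes. Each of the 6 listed BH3-only genes was thus higher in the combination than in EZH2i. For PMAIP1 that call was lost without combination replicate A (0.41, adjusted p = 0.060). The BCL2 difference did not pass the test. EZH2i exceeded AKTi in 5 members (BMF, BCL2L11, BCL2L1, MCL1 and BIK) and was lower in 3 (PMAIP1, BCL2 and BBC3), against 25.4% and 25.1% of all genes. By library size only, the combination against AKTi had 6544 genes higher and 4330 lower (5344 and 5343 under TMM), and EZH2i against AKTi had 5104 and 3293 (4226 and 4170 under TMM). The libraries of treated and DMSO arms did not overlap for 6 members with AKTi, 9 with EZH2i and 9 with the combination. Over all genes those shares were 51.1%, 66.2% and 74.5%.

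The interaction asks whether the combined effect departs from the sum of the single-agent log2 effects, that is, whether AKTi changed a gene differently in cells with and without EZH2i. It was positive for 3 members (HRK, PMAIP1 and BBC3) and negative for 2 (BCL2L1 and MCL1), while 10.7% of all genes were called positive and 17.5% negative. For BBC3 the single-agent effects added to 1.31 and the combination gave 2.12, an interaction of 0.81 ± 0.25 (adjusted p = 0.013). A product of the single-agent folds would have put BBC3 at 8.89 CPM, and the mean of the combination was 15.4. The BBC3 call was lost without DMSO replicate C (0.70, adjusted p = 0.055).

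For HRK the sum was 1.21 and the combination gave 2.99, an interaction of 1.78 ± 0.65 (adjusted p = 0.036). The level expected from the product was 1.03 CPM, beside a mean of 3.42. This call was close to the threshold. It was lost with all genes of at least 1 count (1.76, adjusted p = 0.055) and when any of 8 libraries was left out, namely DMSO replicates B and C, AKTi replicates B and C, EZH2i replicate C and each combination replicate. Over these 8 the estimate ran from 1.52 to 1.81 and the adjusted p from 0.054 to 0.10.

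PMAIP1 had an interaction of the opposite sense to its fall. The single-agent effects summed to -3.28 and the combination gave -1.56, an interaction of 1.72 ± 0.22 (adjusted p = 7.3e-08). The product of the folds would have put it at 1.86 CPM, against a mean of 6.13. AKTi lowered PMAIP1 in the absence of EZH2i and raised it in its presence, a rise not called without combination replicate A. The interaction ranged from 1.55 to 1.85 over all alternatives.

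The pro-survival genes BCL2L1 and MCL1 fell short of the sum. BCL2L1 had 0.92 expected and 0.47 found, an interaction of -0.45 ± 0.09 (adjusted p = 3.7e-04), and MCL1 had 0.48 and 0.04, an interaction of -0.44 ± 0.08 (adjusted p = 9.4e-05). On the CPM scale the product would have given 102 for BCL2L1 and 245 for MCL1, and the means were 75.2 and 181. Both calls were made in every alternative.

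For BMF, BCL2L11, BIK, BAK1 and BCL2 no departure from the log2 sum was called. BMF had 3.88 expected and 3.70 found (interaction -0.18, 95% interval -0.53 to 0.17, adjusted p = 0.49), and BCL2L11 had 1.21 and 1.36 (0.15, 95% interval -0.08 to 0.37, adjusted p = 0.36). BIK differed by -0.06 (95% interval -0.38 to 0.26, adjusted p = 0.83), BAK1 by -0.16 (95% interval -0.44 to 0.12, adjusted p = 0.43) and BCL2 by -0.22 (95% interval -1.13 to 0.69, adjusted p = 0.77). The intervals bound these departures without showing that they are 0, and for BCL2 the bounds are wide. The scale decides the reading for BMF. By adding differences in CPM the single agents would give 60.2, below the mean of 79.1 by 18.9 ± 2.91 (SE), whereas the product of folds gives 90.5. BCL2L11 likewise exceeded the linear sum of 56.7 CPM by 10.96 ± 2.68, with a mean of 67.7.

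**Figure D3:**
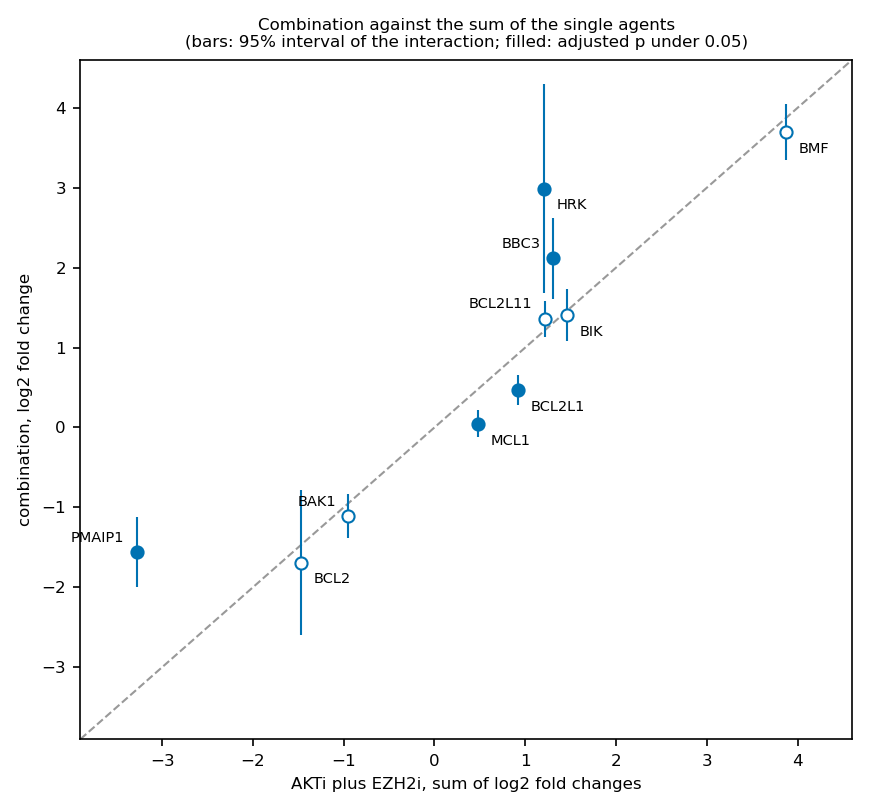
Combination log2 fold change (vertical axis) against the sum of the AKTi and EZH2i log2 fold changes (horizontal axis) for the 10 members, with 95% intervals of the interaction as bars and the line of equal values dashed. HRK, BBC3 and PMAIP1 lie above the line by 1.78, 0.81 and 1.72, and BCL2L1 and MCL1 below it by 0.45 and 0.44 (filled points passed an adjusted p of 0.05).

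Levels were compared between genes per kilobase of gene length, because long transcripts collect more reads. MCL1 led in all 4 arms, at 40.1 ± 3.11 CPM per kb in DMSO and 41.4 ± 2.001 in the combination (SD, n = 3). In DMSO it was followed by BCL2L1 at 16.4 ± 0.872, BAK1 at 14.6 ± 0.608, BIK at 11.1 ± 0.777, PMAIP1 at 8.14 ± 0.601 and BCL2L11 at 3.95 ± 0.143. BMF at 1.11 ± 0.161 and BBC3 at 1.10 ± 0.144 overlapped, and BCL2 at 0.280 ± 0.0624 and HRK at 0.0612 ± 0.0108 came last. BMF was therefore a minor transcript of the list before treatment.

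In the combination the order was MCL1, BIK at 29.4 ± 2.46, BCL2L1 at 22.7 ± 1.05, BMF at 14.5 ± 0.336, BCL2L11 at 10.2 ± 0.327, BAK1 at 6.81 ± 0.905, BBC3 at 4.84 ± 0.817, PMAIP1 at 2.74 ± 0.548, HRK at 0.499 ± 0.0243 and BCL2 at 0.0873 ± 0.0138 CPM per kb. No neighbours in that order overlapped. Per kilobase of that length, BIK had passed BCL2L1, and BMF had moved from the 7th to the 4th place. In AKTi, BCL2L1 (18.6 ± 1.18) overlapped with BIK (16.4 ± 1.29), and BBC3 (2.36 ± 0.283) with BMF (1.77 ± 0.534). In EZH2i, BAK1 (10.7 ± 0.605) overlapped with BMF (10.4 ± 0.655), and BCL2 (0.126 ± 0.0298) with HRK (0.120 ± 0.0286).

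Summed by role, RNA of the 6 BH3-only genes was 25.5 ± 0.942 CPM per kb in DMSO, 29.0 ± 0.892 in AKTi, 42.2 ± 2.53 in EZH2i and 62.1 ± 3.48 with both inhibitors. RNA of the 3 pro-survival genes was 56.8 ± 3.27, 61.0 ± 2.64, 80.7 ± 2.75 and 64.2 ± 2.17 in the same order. Within the list, BH3-only RNA was highest in the combination, and pro-survival RNA was highest in EZH2i. The ratio of the sums was 0.404 to 0.478 in DMSO, 0.455 to 0.507 in AKTi, 0.498 to 0.544 in EZH2i and 0.890 to 1.03 with both inhibitors. The combination libraries lay apart from all others, and AKTi overlapped with both DMSO and EZH2i. BMF made up 4.35% ± 0.723 of the BH3-only sum in DMSO, 6.15% ± 2.05 in AKTi, 24.7% ± 2.17 in EZH2i and 23.4% ± 1.10 with both inhibitors. On this scale BIK was the largest of the 6 terms in all 12 libraries. Family genes outside the list are not in these sums. Among them, BAD stood at 11.9 ± 0.558, BID at 5.70 ± 0.347 and BCL2L2 at 9.92 ± 0.152 CPM per kb in DMSO. In the combination they stood at 9.84 ± 0.632, 4.93 ± 0.262 and 8.16 ± 0.402. The ratio and the size of its shift between arms therefore depend on which genes are listed. MCL1 was 63.3% to 72.03% of the pro-survival sum in all libraries. These sums describe RNA of listed genes chosen with the results known, and neither protein nor binding was measured.

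**Figure D4:**
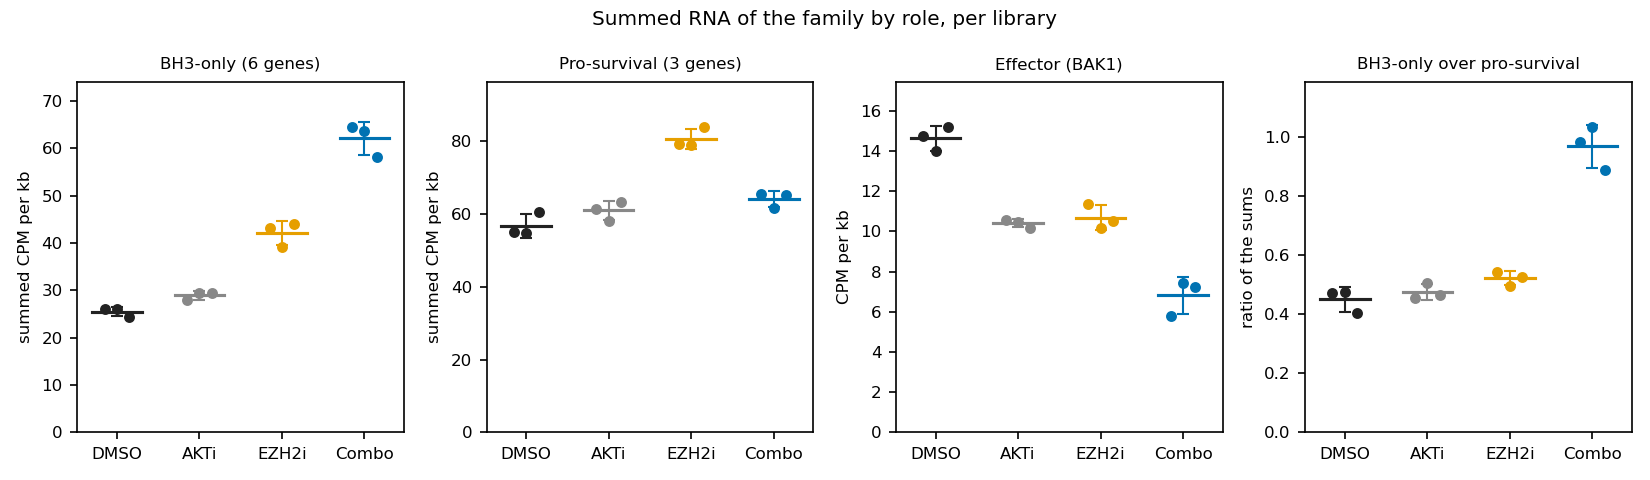
Summed CPM per kb of the 6 BH3-only and 3 pro-survival genes, CPM per kb of BAK1 and the ratio of the first 2 sums (vertical axes, linear from 0) in each of the 3 libraries per arm, with mean bars and SD whiskers. The ratio averaged 0.451, 0.476, 0.522 and 0.969 in DMSO, AKTi, EZH2i and the combination.

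Of 13 further BCL-2 family genes, 10 were tested, and in the combination 3 were higher, 6 lower and 1 not called, against 38.0% and 35.2% of all genes. BCL2A1, BCL2L10 and BCL2L15 had at most 5 counts in any library. Among the tested genes, BNIP3L, a mitophagy receptor, rose 2.92-fold (log2 1.55, adjusted p = 2.2e-24), from 105 ± 4.06 CPM in DMSO to 307 ± 9.60 in the combination (SD, n = 3). BOK, an effector relative, rose by 0.53 on the log2 scale (adjusted p = 3.6e-08) and BCL2L13 by 0.28 (adjusted p = 5.3e-05). BCL2L12 had the largest fall of both lists, by 2.10 on the log2 scale (adjusted p = 5.6e-18), from 42.7 ± 3.75 to 9.90 ± 2.43 CPM. BAX, the effector partner of BAK, fell by 0.46 (adjusted p = 2.4e-05) and BNIP3 by 0.53 (adjusted p = 1.6e-10). The falls of BCL2L2 (-0.28, adjusted p = 9.4e-04), BAD (-0.28, adjusted p = 0.016) and BID (-0.21, adjusted p = 0.045) were small. None of these 3 was called by library size only (-0.09, -0.08 and -0.01) or upper quartile (-0.10, -0.09 and -0.02). BAD also lost its call without DMSO replicate A (-0.25) or combination replicate B (-0.24), and BID without DMSO replicate A (-0.19), DMSO replicate B (-0.23), combination replicate A (-0.18) or combination replicate C (-0.19). With at least 10 counts in every library BAD (adjusted p = 0.063) and BID (-0.14, adjusted p = 0.17) were not called, nor was BID when genes with at least 1 count in total were kept (adjusted p = 0.054). BCL2L14 differed by -0.16 (adjusted p = 0.52), with a sign that changed with the scaling. The interaction was called for BOK (-0.60, adjusted p = 1.4e-05) and BID (-0.42, adjusted p = 0.014).

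**Figure D5:**
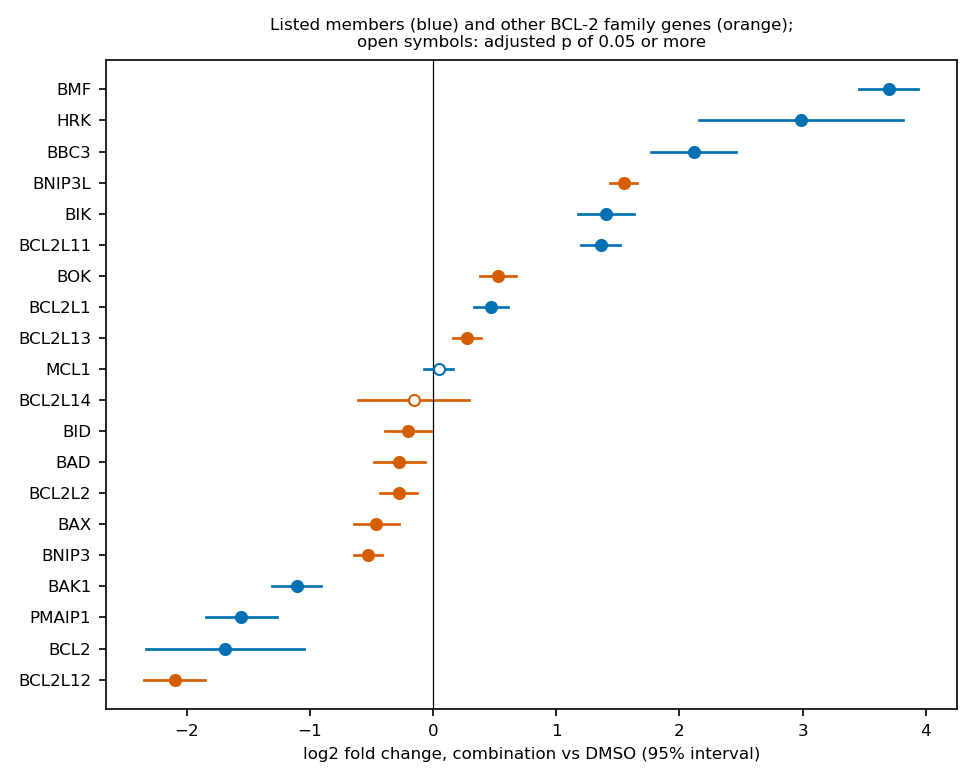
Log2 fold change of the combination against DMSO (horizontal axis, 95% interval as bars) for the 10 members in blue and the 10 other tested BCL-2 family genes in orange, with open points for an adjusted p of 0.05 or more. The genes run from BMF at 3.70 to BCL2L12 at -2.10, and MCL1 and BCL2L14 are the open points.

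The genes around the family were read from 3 further lists. Of 12 transcription factors with known BCL-2 family targets, 11 were tested, and the combination raised 9 and lowered 2 (median log2 1.67, beside 0.06 for all genes), against 38.0% and 35.2% of all genes. The FOXO factors FOXO3, FOXO1 and FOXO4 rose by 2.94, 2.40 and 2.25 on the log2 scale (adjusted p = 1.8e-30, 1.1e-16 and 3.5e-22), and E2F1, a cell cycle factor, fell by 3.95 (adjusted p = 2.0e-30). FOXO3 RNA rose with AKTi alone by 0.84 (adjusted p = 3.8e-13) and with EZH2i alone by 2.16 (adjusted p = 7.2e-26). These are RNA levels, and FOXO activity was not measured.

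All 17 binding partners were called, 7 higher and 10 lower (median -0.67, beside 0.06 for all genes), where 38.0% and 35.2% of all genes were. DYNLL1, a dynein light chain known to bind BIM, fell by 1.58 on the log2 scale (adjusted p = 1.2e-20). DYNLL2, the light chain best known for binding BMF, and its motor MYO5A were higher by 0.20 and 1.03 (adjusted p = 0.0015 and 2.6e-17), and these 2 were named after their values were seen. The outer membrane channels VDAC1 and VDAC2, the latter a partner of BAK, fell by 1.40 and 1.38 (adjusted p = 7.4e-24 and 8.9e-23). SFN, a 14-3-3 protein, was called lower (adjusted p = 0.019) on 16 counts in all DMSO and 3 in all combination libraries, too few for a fold. Its call was lost without DMSO replicate A, DMSO replicate C or combination replicate C (adjusted p = 0.081, 0.070 and 0.080).

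Of 7 tested genes that act after the mitochondrial membrane opens, 3 were higher, 3 lower and 1 not called (median -0.07), with 38.0% and 35.2% of all genes higher and lower. CYCS, which encodes cytochrome c, fell by 2.48 on the log2 scale (adjusted p = 2.1e-30), whereas APAF1, the scaffold of the apoptosome, and its protease CASP9 rose by 1.23 and 1.10 (adjusted p = 5.9e-10 and 1.1e-06). HTRA2, a protease of the intermembrane space, fell by 0.46 (adjusted p = 8.4e-04).

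The protein-coding genes whose log2 CPM followed BMF most closely over the 12 libraries were CERK, SKAP2, FNBP1L, TNC and MFSD6, with Pearson r of 0.993 to 0.994. All 5 were lower in DMSO and AKTi than in EZH2i and the combination. CERK averaged 3.46, 6.37, 36.2 and 69.9 CPM in DMSO, AKTi, EZH2i and the combination, and TNC averaged 0.0384, 0.167, 8.08 and 8.76. Of 13083 protein-coding genes, 1530 (11.7%) had r over 0.9, and the 12 points are 4 arms of 3 libraries that share their treatment.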

How the data were processed

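Polyadenylated RNA of C4.2B cells was sequenced in 12 libraries, and the authors aligned reads to hg38 with STAR and counted them on genes with HTSeq. Software versions, gene annotation and use of strand in counting: not given in the sources used here. The deposited count values are raw whole numbers for 58735 genes, with a gene length column used for levels per kilobase. The deposited signal values are counts that the authors normalized with DESeq2. They were checked against the counts over a size factor for 56994 names, all within 0.01%, and were not tested. Per the labels, all 12 libraries were made through Novogene. The study's methods name NextSeq 500 or Novogene sequencing, and no run or date is given that could be a term in the fit.

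Counts were analysed in R 4.3.3 with edgeR 4.0.16. Genes were kept by filterByExpr (minimum count 10, minimum total 15), libraries were scaled by TMM, and a quasi-likelihood model with a mean for each arm was fitted to the 12 libraries together. The interaction is the log2 effect of the combination less the summed log2 effects of the single agents. Benjamini-Hochberg adjustment ran over 16646 genes with a threshold of 0.05, and intervals are 95%. Totals of 14133755 to 22276417 counts limit HRK and BCL2 most. The steps were tested on simulated data in which only a small share of genes changed. Scaling under changes as widespread as those found here was therefore not tested by it. Promoters were searched in Python 3.11.15. Alternatives were DESeq2 1.42.0, 3 scalings, 2 filters, the libraries compared alone, a block for the replicate letter and the omission of each library.

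The members and all lists were chosen with earlier results of these data known. All members and all tested genes of the wider family are named, and of other lists up to 4 called genes with the largest combination change. DIABLO, which has 2 rows, was left out. Likeness to BMF is Pearson's r of log2 CPM (prior count 2). Other cell lines, tumors and protein assays were not analysed here.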

Additional observations from a re-analysis of the deposited data

Results flagged for a closer look

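The effect of AKTi differed between cells with and without EZH2i for 5 of the 10 genes, by edgeR's test of the interaction with Benjamini-Hochberg adjustment, while 10.7% of all genes were called positive and 17.5% negative. The difference was 0.81 on the log2 scale for BBC3 (adjusted p = 0.013), 1.78 for HRK (adjusted p = 0.036) and 1.72 for PMAIP1 (adjusted p = 7.3e-08). It was -0.45 for BCL2L1 (adjusted p = 3.7e-04) and -0.44 for MCL1 (adjusted p = 9.4e-05). The HRK call was lost when any of 8 libraries was left out (adjusted p of 0.054 to 0.10), and the BBC3 call without DMSO replicate C (0.70, adjusted p = 0.055). For PMAIP1 the sign of the AKTi effect changed, from -1.14 without EZH2i to 0.58 with it, and for BCL2L1 from 0.18 to -0.27. The PMAIP1 rise was not called without combination replicate A (0.41, adjusted p = 0.060). The BCL2L1 rise was not called in 7 of 20 alternatives. For BBC3 the AKTi effect went from 1.08 to 1.89 and for HRK from 0.29 to 2.07, and for MCL1 from 0.07 to -0.36.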

How the results depend on the processing

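The libraries' letters did not pair the arms. The deviations of same-letter libraries from their arm means correlated at -0.058 to 0.069, 0 of 18 pairs exceeded 0.1, and 4 of 12 libraries followed their own letter best. With a replicate block, 12146 genes differed between the combination and DMSO, BMF changed by 3.70, and no count of members called moved. AKTi raised 3 members when every gene with at least 1 count was tested. With 1 library left out it raised 3 to 5, the 3 without DMSO replicate B. The interaction was called positive for 1 to 3 members with 1 library left out, the 1 being PMAIP1 without DMSO replicate C. HRK could not be tested when at least 10 counts were required in every library.

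Sign changes concerned differences that were not called under TMM. MCL1 in the combination against AKTi (-0.03) became 0.11 by library size only, 0.099 by upper quartile and 0.038 with at least 10 counts in every library, and ran from -0.092 to 0.0020 with 1 library left out. MCL1 against DMSO ran from -0.021 to 0.10 with 1 library left out. BCL2L14 gave 0.039 by library size only and 0.025 by upper quartile, and ran from -0.33 to 0.073 with 1 library left out. BAK1 between the single agents ran from -0.028 to 0.068, and HRK in AKTi from -0.43 to 0.56. The interaction ran from -0.33 to 0.044 for BMF and from -0.16 to 0.025 for BIK. The causes were not tested.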
